A study of Mus musculus with 24 samples.

Results

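Elongation factor 2 and the genes that modify it were followed through hearts injured with diphtheria toxin, the poison that acts on this factor. The set held 9 of the 46078 genes in the deposited count table, taken by symbol: Eef2 itself, its kinase Eef2k, and the diphthamide genes Dph1, Dph2, Dph3, Dnajc24, Dph5, Dph7 and Dph6. All 9 were among the 15456 genes that exceeded 0.5 CPM (counts scaled to equal library totals) in 6 or more libraries. In hearts taken at day 5, the kinase gene Eef2k fell in injured hearts against uninjured ones under both treatments. Dph5 rose under both, Dph2 rose under vehicle, and Eef2 itself did not pass the test. The test called 42.9% of all genes under vehicle and 12.2% under the drug pyridostigmine. The Dph2 call, and the Eef2k and Dph5 calls under pyridostigmine, were lost in some alternative fits.

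Elongation factor 2 moves the ribosome along the messenger RNA by one codon at a time. A histidine near its tip is built into diphthamide, a residue found in no other known protein, and diphtheria toxin attaches ADP-ribose to that residue and so stops protein synthesis. The pathway was worked out mainly in budding yeast: Dph1 and Dph2 start it with the help of Dph3 and the J-domain protein Dnajc24 (also called Dph4), Dph5 adds methyl groups, Dph7 removes a methyl group, and Dph6 adds the final amide. Eef2k is a calmodulin-dependent kinase that phosphorylates a threonine of elongation factor 2 and slows elongation.

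Both modified residues are shown here in the coding sequence of Eef2, since the toxin, the Dph enzymes and the kinase all act on these 2 places. The codon of the diphthamide histidine is number 715 of 858 (residue 714 without the initiator methionine) in exon 12, within chr10:81181279-81181329 on the + strand of GRCm38. The codon of the threonine phosphorylated by Eef2k is number 57 (residue 56 without the initiator methionine) in exon 2, within chr10:81177806-81177856 on the + strand. Both stretches are 51 bases long, read from the GENCODE vM21 transcripts, and the capitals mark the codon of the modified residue.
diphthamide histidine: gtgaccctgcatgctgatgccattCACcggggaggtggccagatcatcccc
threonine of Eef2k: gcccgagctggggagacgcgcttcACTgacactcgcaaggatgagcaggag

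RNA came from the apex of the ventricles of 24 male C57BL/6 mice, 10 weeks old, at day 5. In DTR_PYR and DTR_PBS hearts an injury had been made with diphtheria toxin. These mice had pyridostigmine (PYR), a drug that blocks the enzymes breaking down acetylcholine, or its PBS vehicle. WT_PYR and WT_PBS hearts were wild type, had no toxin, and had the same drug or vehicle. DTR commonly stands for diphtheria toxin receptor; the sources used here do not give the promoter and cells that carried it, the times of dosing or the toxin dose. Receptor and toxin moved together over the groups, so "injury" covers both. Each group held 6 libraries, and each title had its own animal tag, so a library was taken as 1 animal.

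Depth ranged over the 24 libraries between 1.88 and 37.8 M counts, with 2.39 to 37.8 M in DTR_PYR, 1.88 to 36.3 M in DTR_PBS, 7.24 to 15.3 M in WT_PYR and 3.73 to 34.9 M in WT_PBS. The tissue label is heart ventricle, and all 10 cardiomyocyte markers were detected in every library. The 3 libraries labelled DTR_PYR 4, 5 and 6 stood apart from the other injured ones: Hbegf, the mouse counterpart of the toxin receptor, had 19.3, 23.3 and 25.8 CPM in them, against 118.1 to 171.9 CPM in DTR_PYR 1 to 3, 105.3 to 166.7 CPM in DTR_PBS, 19.8 to 25.8 CPM in WT_PYR and 18.3 to 26.8 CPM in WT_PBS. The sources used here do not say whether reads of the receptor transgene were counted under Hbegf. DTR_PYR 4 to 6 keep their labels below, and the results that rest on them are also given without them. Each tag has a last letter, U or V, that the labels do not explain. U tags made up 2 of 6 in each injured group and 4 of 6 in each uninjured group. The tag series, also unexplained, is the first digit of the tag number with that letter. Tags in the 200s made up 2 of 6 in each uninjured group and 0 of 6 in each injured group, so injury and that series cannot be fully told apart.

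Against vehicle-treated wild-type hearts, vehicle-treated injured hearts had Eef2k called lower and Dph5 and Dph2 called higher, so 3 of the 9 members passed the test and 6 did not. The test was the edgeR quasi-likelihood test with Benjamini-Hochberg adjustment over all 15456 genes and a threshold of 0.05. It called 42.9% of all genes in this comparison (21.3% higher and 21.6% lower), so 3 of 9 is near the share of all genes. At an unadjusted p under 0.05 there were 4 of the 9 members, beside 49.9% of all genes. The median log2 fold change of the members was −0.05, against 0.01 over all genes tested. For 3 of the 9 members the 6 injured and 6 uninjured libraries did not overlap, beside 22.2% of all genes. With pyridostigmine, DTR_PYR against WT_PYR, 2 of the 9 members were called, Eef2k lower and Dph5 higher, beside 12.2% of all genes (8.06% higher and 4.17% lower); 2 had an unadjusted p under 0.05, beside 29.5% of all genes. Without DTR_PYR 4 to 6 the same 2 members were called, beside 32.5% of all genes.

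**Figure D1:**
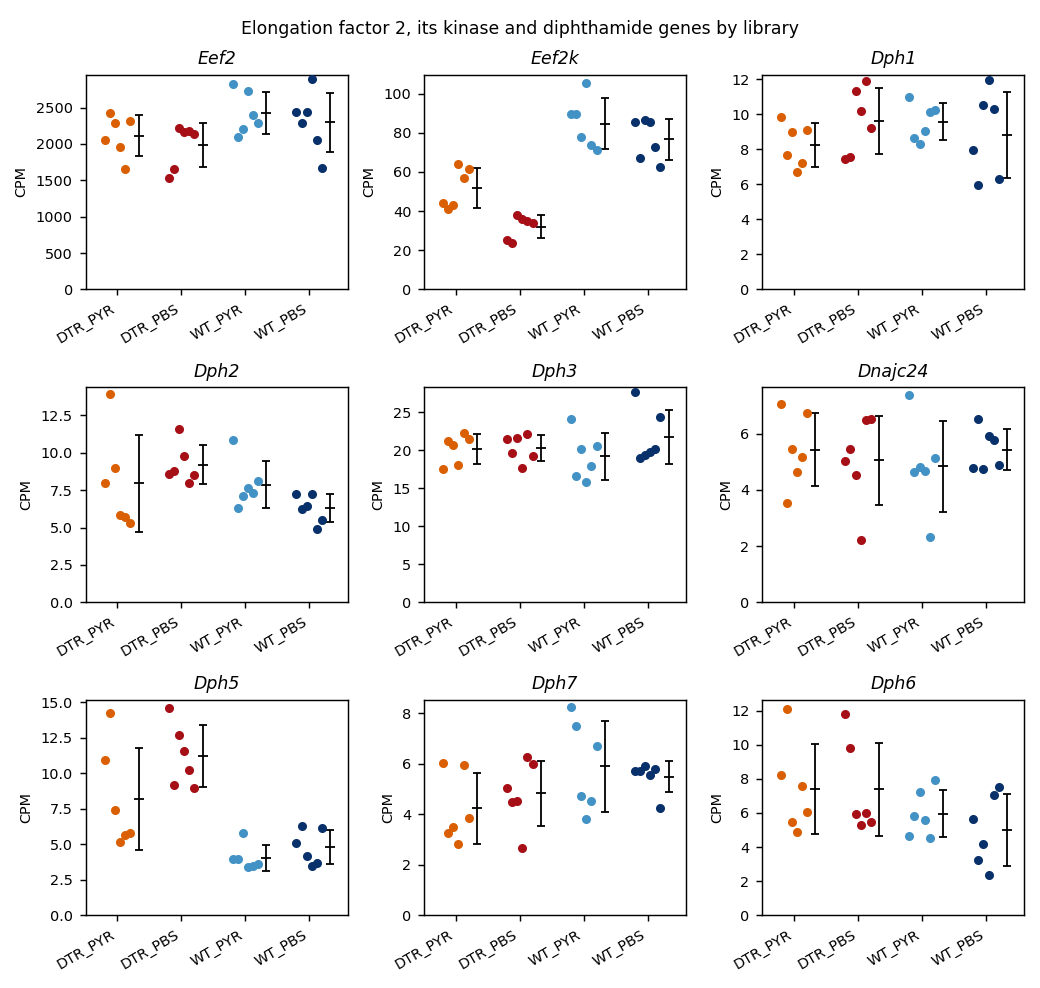
TMM-scaled CPM of each of the 9 members in every library, 1 point per library, with the mean and SD of the 6 libraries of each group beside the points. Eef2k runs from 23.96 to 38.1 CPM in DTR_PBS and from 62.4 to 86.4 CPM in WT_PBS, with no overlap, while the points of Dph3 lie between 15.8 and 27.7 CPM in all 4 groups.

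Eef2, the toxin target (ENSMUSG00000034994, chr10:81176631-81182507, + strand, 3324 exonic bases), was by far the most abundant member. CPM here and below are after TMM scaling (the trimmed mean of M-values). In DTR_PBS its lowest, median and highest libraries had 1538, 2151 and 2215 CPM, against 1673, 2366 and 2887 CPM in WT_PBS. The groups overlapped, and 0 of the 6 injured libraries lay above the uninjured median. The mean was 1982 ± 302 CPM in DTR_PBS and 2296 ± 410 CPM in WT_PBS (SD, n = 6 each), a log2 fold change of −0.21 (SE 0.16, edgeR adjusted p = 0.290) with a 95% interval between −0.54 and 0.11. The sign of that difference depended on the scaling: with total counts in place of TMM it was 0.12 (adjusted p = 0.556), while the median of all genes moved to 0.39 and the calls over all genes to 5705 higher and 1756 lower, against 3293 higher and 3341 lower with TMM. Within U tags the difference of mean log2 CPM was −0.39 and within V tags 0.01. Under pyridostigmine Eef2 had 1657, 2174 and 2421 CPM in DTR_PYR, against 2094, 2342 and 2826 CPM in WT_PYR (log2 fold change −0.20, SE 0.16, edgeR adjusted p = 0.423). In neither treatment did the difference in the toxin target's message pass the test.

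Eef2k, the kinase that phosphorylates the threonine shown above (ENSMUSG00000035064, chr7:120842831-120907219, + strand), fell in injured hearts in both treatments. In DTR_PBS it had 23.96, 34.4 and 38.1 CPM as its lowest, median and highest values, against 62.4, 79.1 and 86.4 CPM in WT_PBS. Every DTR_PBS library lay under every WT_PBS library, and the lowest pair were DTR_PBS 1 and 2. Its mean was 32.0 ± 5.88 CPM in DTR_PBS and 76.7 ± 10.6 CPM in WT_PBS (SD, n = 6 each), which is 2.41-fold lower (log2 fold change −1.27, SE 0.15, edgeR adjusted p = 6.58e-06). By p value it was number 12 of the 15456 genes. The difference of mean log2 CPM was −1.35 within U tags and −1.19 within V tags.

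With pyridostigmine, Eef2k had 41.1, 50.5 and 63.9 CPM in DTR_PYR, against 71.2, 83.8 and 105.7 CPM in WT_PYR. The groups again did not overlap, which held for 5.36% of all genes. The means were 51.8 ± 10.1 CPM in DTR_PYR and 84.6 ± 12.9 CPM in WT_PYR (SD, n = 6 each), 1.63-fold lower (log2 fold change −0.70, SE 0.15, edgeR adjusted p = 0.00496). Inside DTR_PYR the values split with the libraries that stand apart: DTR_PYR 1, 2 and 3 had 44.2, 41.1 and 43.3 CPM, and DTR_PYR 4, 5 and 6 had 63.9, 56.8 and 61.5 CPM. Without DTR_PYR 4 to 6, a choice made after seeing the data, the log2 fold change was −0.98 (edgeR adjusted p = 0.0002). Without the 3 libraries under 3 M counts, DTR_PBS 4, DTR_PYR 2 and DTR_PYR 3, it was −0.58 and no longer called (edgeR adjusted p = 0.0839). That fit called only 100 genes, 0.647% of all, and DTR_PYR 4 to 6, which it keeps, weigh more in it.

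Cardiomyocyte markers moved with Eef2k. The summed level of the 10 markers, which include Myh6 and Atp2a2, ranged between 28438 and 77069 CPM in DTR_PBS and between 98794 and 110953 CPM in WT_PBS; it ranged between 40644 and 91335 CPM in DTR_PYR and between 97229 and 109252 CPM in WT_PYR. Of the 10, 7 fell in DTR_PBS and 3 were not called, and in DTR_PYR Myl2 alone was called lower (6 of 10 without DTR_PYR 4 to 6); none of the 10 was at 0 in any library. Endothelial markers moved the same way, with 7 of 8 called lower in DTR_PBS (4 with total-count scaling), summed levels of 660.01 to 883.7 CPM in DTR_PBS and 1164 to 1451 CPM in WT_PBS, and Cdh5 and Kdr as the most abundant. Their part in the Eef2k result was not tested, and in bulk RNA fewer cells of a type and less RNA per cell cannot be told apart. The share of mitochondrially encoded counts was 5.41 to 9.97% in DTR_PBS and 6.01 to 25.6% in WT_PBS.

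**Figure D2:**
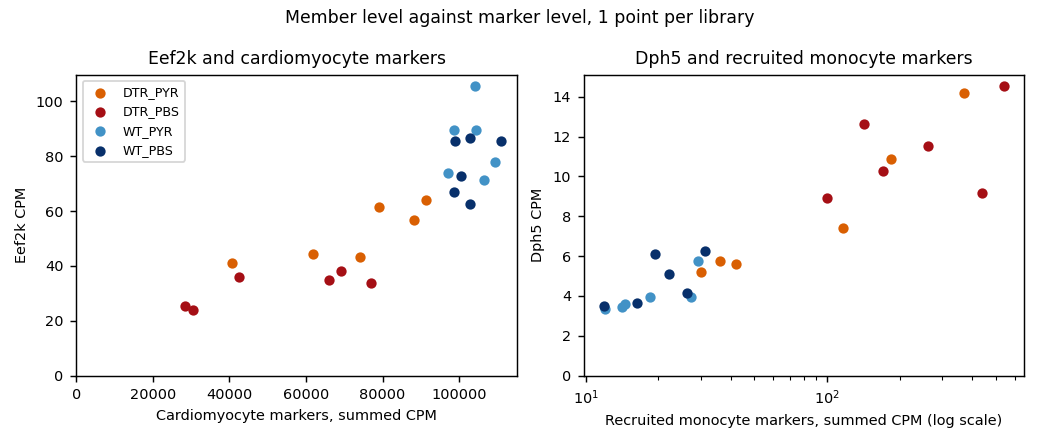
Each point is 1 library: Eef2k CPM against the summed CPM of 10 cardiomyocyte markers (left), and Dph5 CPM against the summed CPM of 7 recruited monocyte markers on a log axis (right). The libraries labelled DTR_PYR 4 to 6, at 56.8 to 63.9 CPM of Eef2k and 5.18 to 5.77 CPM of Dph5, lie beside or among the uninjured libraries.

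Within a library, the count of Eef2k relative to that of its substrate Eef2 does not depend on how libraries are scaled to each other. There were 16.1 ± 0.925 reads of Eef2k per 1000 reads of Eef2 in DTR_PBS (range 14.5 to 17.2), against 33.7 ± 3.396 in WT_PBS (range 29.2 to 37.3; SD, n = 6 each). The DTR_PBS values were the most even of the 4 groups and lay wholly under those of WT_PBS. Under pyridostigmine the ratio was 25.2 ± 7.24 in DTR_PYR (range 16.99 to 34.3) and 35.1 ± 4.87 in WT_PYR (range 30.8 to 42.8), and these ranges overlapped. DTR_PYR 1 to 3 had 21.4, 16.99 and 18.9, and DTR_PYR 4 to 6 had 32.7, 34.3 and 26.6. These ratios are of reads and not of molecules, since the genes differ in length, and they repeat the Eef2k difference in another form.

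**Figure D3:**
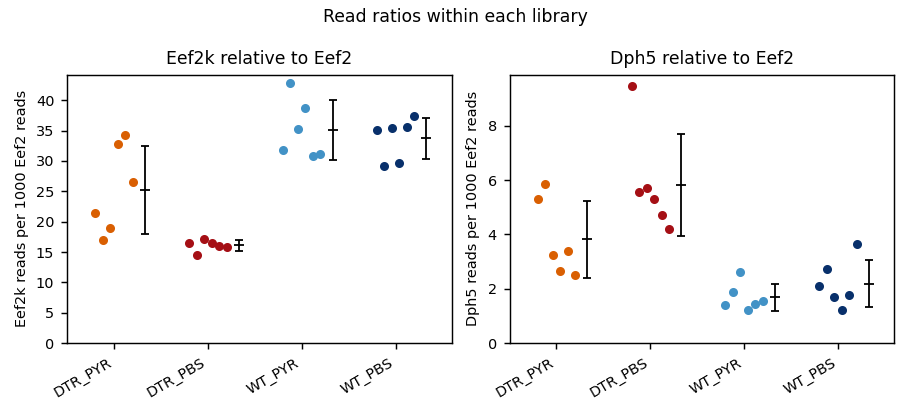
Reads of Eef2k (left) and of Dph5 (right) per 1000 reads of Eef2 in each library, with the mean and SD of the 6 libraries of a group. The DTR_PBS libraries hold 14.5 to 17.2 Eef2k reads per 1000 Eef2 reads and the WT_PBS libraries 29.2 to 37.3.

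The first step of diphthamide synthesis showed 1 called gene of 4. Dph2, which pairs with Dph1 to attach the first group to the histidine (ENSMUSG00000028540, chr4:117888643-117892032, − strand), had 8.002, 8.65 and 11.6 CPM in DTR_PBS, against 4.93, 6.36 and 7.27 CPM in WT_PBS. All 6 injured libraries lay above all 6 uninjured ones. The means were 9.19 ± 1.30 CPM in DTR_PBS and 6.27 ± 0.936 CPM in WT_PBS (SD, n = 6 each), 1.45-fold higher (log2 fold change 0.54, SE 0.21, edgeR adjusted p = 0.0384), with 0.51 within U tags and 0.60 within V tags. This call was near the threshold: it was lost when any of WT_PBS 2, 3, 5 or 6 or DTR_PBS 2, 3 or 4 was left out, with edgeR adjusted p up to 0.0945. It was also lost without the filter on low counts (adjusted p = 0.0743). Under pyridostigmine Dph2 had 5.28, 6.89 and 13.9 CPM in DTR_PYR, against 6.30, 7.44 and 10.8 CPM in WT_PYR (log2 fold change −0.03, edgeR adjusted p = 0.936). There DTR_PYR 2 alone reached 13.9 CPM and DTR_PYR 4 to 6 had 5.28 to 5.83 CPM; without DTR_PYR 4 to 6 the log2 fold change was 0.37 (adjusted p = 0.221).

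Its partner Dph1 (ENSMUSG00000078789, chr11:75177643-75191241, − strand) averaged 9.61 ± 1.87 CPM in DTR_PBS and 8.83 ± 2.46 CPM in WT_PBS (SD, n = 6 each), with a log2 fold change of 0.11 (edgeR adjusted p = 0.675). Of its exonic bases 36.0% are shared with Ovca2 on the same strand, so its counts are uncertain. The Dph2 count was 0.979 ± 0.177 times that of Dph1 in DTR_PBS and 0.755 ± 0.219 times in WT_PBS, and the libraries overlapped. Dph3, which supplies electrons to the Dph1 and Dph2 pair (ENSMUSG00000021905, chr14:32080566-32085692, − strand), averaged 20.3 ± 1.72 CPM in DTR_PBS and 21.7 ± 3.52 CPM in WT_PBS, with a log2 fold change of −0.10 and a 95% interval between −0.37 and 0.17. Dph3 shares 320 exonic bases with Oxnad1 on the opposite strand, and the libraries are not strand-specific. Dnajc24 (ENSMUSG00000027166, chr2:105966709-106003549, − strand) averaged 5.05 ± 1.60 CPM in DTR_PBS and 5.44 ± 0.738 CPM in WT_PBS, with a log2 fold change of −0.05 and an interval between −0.55 and 0.44. Its counts were few, down to 5 reads in DTR_PBS 4. A change within that interval could not be told from none. In DTR_PYR against WT_PYR none of these 4 genes was called, with log2 fold changes between −0.22 and 0.16.

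Dph5, the methyltransferase of the second step (ENSMUSG00000033554, chr3:115887837-115934361, + strand), rose in injured hearts in both treatments. It had 8.94, 10.9 and 14.6 CPM in DTR_PBS, against 3.49, 4.62 and 6.25 CPM in WT_PBS. Every injured library lay above every uninjured one. Its mean was 11.2 ± 2.17 CPM in DTR_PBS and 4.79 ± 1.22 CPM in WT_PBS (SD, n = 6 each), 2.34-fold higher (log2 fold change 1.23, SE 0.24, edgeR adjusted p = 0.000292). The difference of mean log2 CPM was 1.497 within U tags and 0.99 within V tags. A noncoding gene that shares 294 exonic bases with Dph5 on the opposite strand, A930005H10Rik, had a log2 fold change of 0.09 (edgeR adjusted p = 0.814).

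With pyridostigmine Dph5 had 5.18, 6.59 and 14.2 CPM in DTR_PYR, against 3.37, 3.76 and 5.78 CPM in WT_PYR. The groups overlapped only through WT_PYR 3, at 5.78 CPM, while the other WT_PYR libraries had 3.37 to 3.96 CPM. DTR_PYR 4 to 6 had 5.18, 5.61 and 5.77 CPM, and DTR_PYR 1 to 3 had 10.9, 14.2 and 7.41 CPM. The means were 8.18 ± 3.62 CPM in DTR_PYR and 4.01 ± 0.901 CPM in WT_PYR (SD, n = 6 each; log2 fold change 0.999, SE 0.25, edgeR adjusted p = 0.0114). The difference of mean log2 CPM was 1.75 within U tags, which hold DTR_PYR 1 and 2, and 0.31 within V tags, which hold DTR_PYR 3 to 6. Without DTR_PYR 4 to 6 the log2 fold change was 1.45 (adjusted p = 0.0001). The call was lost without the libraries under 3 M counts (0.76, adjusted p = 0.120) and with limma voom (adjusted p = 0.0606). The fit without the libraries under 3 M counts keeps DTR_PYR 4 to 6, which weigh more in it.

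Per 1000 reads of Eef2 there were 5.82 ± 1.87 reads of Dph5 in DTR_PBS (range 4.19 to 9.47) and 2.19 ± 0.874 in WT_PBS (range 1.21 to 3.66), without overlap. The ratio was 3.82 ± 1.41 in DTR_PYR (range 2.49 to 5.87) and 1.69 ± 0.503 in WT_PYR (range 1.23 to 2.62), with overlap. Markers of recruited monocytes, macrophages, fibroblasts and dividing cells moved with Dph5. The 7 recruited monocyte markers, with Lgals3 and Vcan the most abundant, summed to 100.4 to 542.6 CPM in DTR_PBS and 11.9 to 31.2 CPM in WT_PBS, and to 30.1 to 368.1 CPM in DTR_PYR and 12.0 to 29.3 CPM in WT_PYR. Of the 7, 6 rose in DTR_PBS and 4 in DTR_PYR; of 12 macrophage markers 10 rose in each, of 8 fibroblast markers 5 rose in DTR_PBS and 6 in DTR_PYR, and of 8 dividing cell markers all 8 rose in DTR_PBS and 4 in DTR_PYR (8 without DTR_PYR 4 to 6). Chil3 of the monocyte list and Bub1, Aurkb and Ccnb1 of the dividing list were at 0 in 1 or 2 libraries of a group, and the markers' part in the Dph5 result was not tested. The 6 lymphocyte markers that could be tested summed to 3.24 to 7.54 CPM in DTR_PBS and 1.4996 to 5.43 CPM in WT_PBS, with 0 called there and 1 called higher in DTR_PYR. Among 8 smooth muscle and pericyte markers, 2 rose and 3 fell in DTR_PBS.

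The genes of the last steps did not pass the test. Dph7, which removes a methyl group (ENSMUSG00000026975, chr2:24962400-24972163, + strand), averaged 4.83 ± 1.29 CPM in DTR_PBS and 5.48 ± 0.623 CPM in WT_PBS (log2 fold change −0.15, edgeR adjusted p = 0.654). In DTR_PYR it averaged 4.23 ± 1.40 CPM, against 5.91 ± 1.80 CPM in WT_PYR (log2 fold change −0.46, edgeR adjusted p = 0.201). Dph6, the amidation ligase (ENSMUSG00000057147, chr2:114516416-114654964, − strand), had 5.32, 5.97 and 11.8 CPM in DTR_PBS, against 2.35, 4.89 and 7.55 CPM in WT_PBS. All 6 injured libraries lay above the uninjured median of Dph6, yet the groups overlapped and DTR_PBS 1 and 2 alone exceeded 9 CPM. The log2 fold change was 0.59 (SE 0.28, edgeR adjusted p = 0.0944) and was called with total-count scaling (1.02, adjusted p = 0.00744), with limma voom (adjusted p = 0.0298) and without WT_PBS 6 (adjusted p = 0.0371). Under pyridostigmine Dph6 averaged 7.40 ± 2.65 CPM in DTR_PYR and 5.96 ± 1.38 CPM in WT_PYR, with a log2 fold change of 0.30 (edgeR adjusted p = 0.508).

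**Figure D4:**
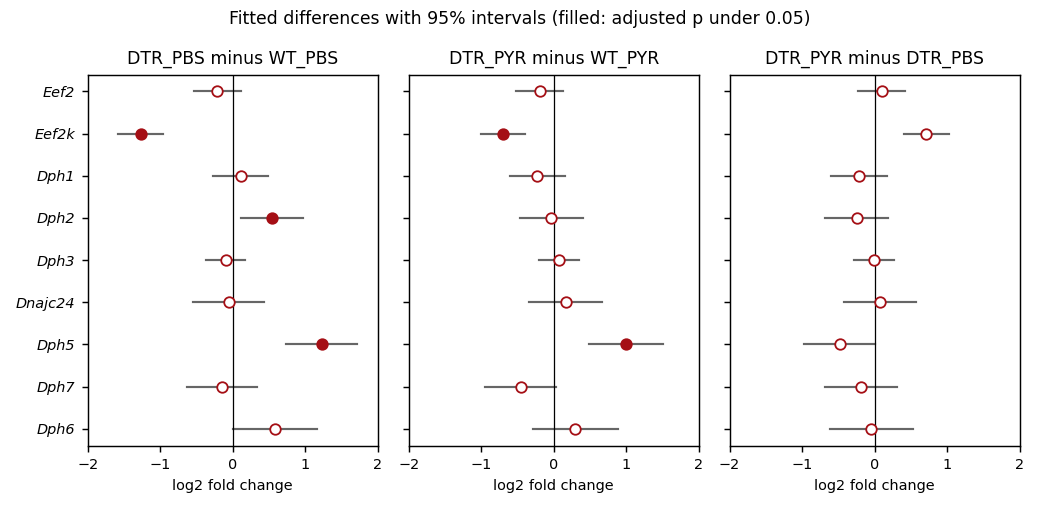
Fitted log2 fold changes of the 9 members with 95% intervals in 3 comparisons, filled where the edgeR adjusted p is under 0.05. Eef2k is filled at −1.27 and −0.70 and Dph5 at 1.23 and 0.999 in the 2 injury comparisons, Dph2 is filled at 0.54 in DTR_PBS minus WT_PBS, and nothing is filled in DTR_PYR minus DTR_PBS, where the interval of Eef2k lies between 0.40 and 1.02.

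The drug itself was compared in injured hearts, DTR_PYR against DTR_PBS, a contrast that shares its libraries with both injury contrasts. By edgeR 0 of the 9 members were called, as were 0% of all genes at the adjusted threshold. At an unadjusted p under 0.05 there were 1 of 9 members and 2991 genes, 19.4% of all; limma voom called 1765 genes and DESeq2 242. The member with an unadjusted p under 0.05 was Eef2k, at 51.8 ± 10.1 CPM in DTR_PYR and 32.0 ± 5.88 CPM in DTR_PBS (SD, n = 6 each). All 6 DTR_PYR libraries lay above all 6 DTR_PBS libraries, which held for 0.375% of all genes. The log2 fold change was 0.71 (SE 0.15, unadjusted p = 7.21e-05, edgeR adjusted p = 0.111), number 10 of all genes by p value. Within tags the difference of mean log2 CPM was 0.50 for U and 0.79 for V.

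The Eef2k value in that comparison rests partly on DTR_PYR 4 to 6: without them its log2 fold change was 0.43 (edgeR adjusted p = 0.819). It was called by limma voom (adjusted p = 0.00788) and by DESeq2 (adjusted p = 0.00510). It was called by edgeR without the libraries under 3 M counts (0.86, adjusted p = 0.0141), which are DTR_PBS 4, DTR_PYR 2 and DTR_PYR 3. That fit called 2114 genes, 13.7% of all. Eef2k was also called by edgeR without DTR_PYR 2 alone (0.77, adjusted p = 0.0121), when edgeR called 2404 genes, 15.6% of all. Both of these fits keep DTR_PYR 4 to 6 and leave out libraries of DTR_PYR 1 to 3, so DTR_PYR 4 to 6 weigh more in them. Dph5 had a log2 fold change of −0.48 (edgeR adjusted p = 0.264), called by limma voom (adjusted p = 0.0287) and by edgeR without DTR_PYR 2 (−0.70, adjusted p = 0.0379), and was −0.04 without DTR_PYR 4 to 6. Eef2 had a log2 fold change of 0.09 with an interval between −0.23 and 0.42, and −0.02 with total-count scaling. The other 6 members had log2 fold changes between −0.25 and 0.07.

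In uninjured hearts, WT_PYR against WT_PBS, 0 of the 9 members were called and 0 had an unadjusted p under 0.05, beside 481 genes, 3.11% of all, at that unadjusted level. The adjusted test called 0 genes with edgeR, 0 with limma voom and 1 with DESeq2. Eef2k averaged 84.6 ± 12.9 CPM in WT_PYR and 76.7 ± 10.6 CPM in WT_PBS, with a log2 fold change of 0.14 and an interval between −0.16 and 0.44. Eef2 averaged 2423 ± 293 CPM in WT_PYR and 2296 ± 410 CPM in WT_PBS, a log2 fold change of 0.08. The interaction asks whether the drug's difference is unlike in injured and uninjured hearts. It called 0 of the 9 members and 0 genes by edgeR, with 1231 genes, 7.96%, at an unadjusted p under 0.05, and 0 genes by limma voom and 9 by DESeq2. For Eef2k the interaction was 0.57 (SE 0.21, unadjusted p = 0.0120, edgeR adjusted p = 0.569), so its drug difference was not shown to depend on injury.

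Levels of different genes were compared per kilobase of annotated exon, UTRs included. Eef2 stood at 636 ± 85.3 CPM per kb in DTR_PYR, 596 ± 90.7 in DTR_PBS, 729 ± 88.0 in WT_PYR and 691 ± 123 in WT_PBS (SD, n = 6 each), which is 91.0, 105.4, 63.8 and 66.8 times the next member in those groups. Eef2k came next at 6.99 CPM per kb in DTR_PYR, 11.4 in WT_PYR and 10.3 in WT_PBS; in DTR_PBS, at 4.32 CPM per kb, it stood below Dph3 (5.66 CPM per kb) in all 6 libraries and above Dnajc24 in 2 of 6. Dph3, Dnajc24, Dph1, Dph2 and Dph7 followed, and the order among the last 4 of these did not hold in every library of any group. The lowest levels belonged to Dph5 and Dph6. Dph5 was above Dph6 in 5 of 6 DTR_PBS libraries and in 3 of 6 DTR_PYR libraries, and Dph6 was above Dph5 in 6 of 6 WT_PYR libraries and 4 of 6 WT_PBS libraries. Both have long annotated exons (8027 bases for Dph5 and 7407 for Dph6), and a level per length depends on that annotation. For Dph1 the full exonic length was used, of which 36.0% is shared with Ovca2.

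**Figure D5:**
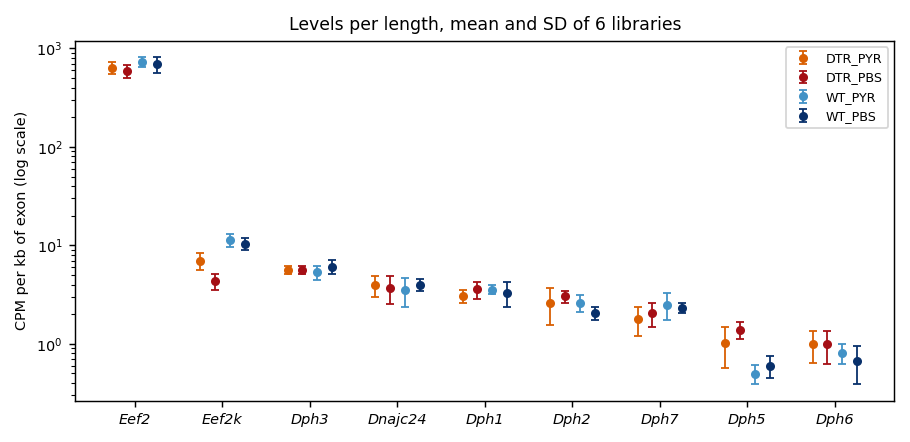
TMM-scaled CPM per kb of annotated exon for the 9 members on a log axis, as the mean and SD of 6 libraries in each group. Eef2 lies between 596 and 729 CPM per kb, the other 8 members at or below 11.4, and Eef2k in DTR_PBS at 4.32, under Dph3.

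The other factors of peptide elongation were counted beside the members. Of 12 cytosolic elongation factors and their modifiers, 3 rose in DTR_PBS against WT_PBS and 1 fell: Eef1e1, a partner of the aminoacyl-tRNA synthetases (log2 fold change 1.07), Eef1a1, which brings charged tRNA to the ribosome (0.94), and Eef1g (0.76) rose, and Dohh, which completes the hypusine of Eif5a, fell by 0.74. The list's median was 0.27, against 0.01 over all genes, of which 42.9% were called. With total-count scaling, which moves all genes to 0.39 and calls 48.3% of them, the list's median was 0.64, with 8 higher and 1 lower. Eef1a2, the muscle form of that tRNA carrier, had −0.49 and was not called (edgeR adjusted p = 0.0888). In DTR_PYR against WT_PYR Eef1e1 rose (1.33) and Dohh fell by 0.45, with 10 of 12 not called; without DTR_PYR 4 to 6, 5 were called higher and 1 lower. Of the 4 mitochondrial factors, Gfm1 fell by 0.83, Tsfm by 0.67 and Gfm2 by 0.39 in DTR_PBS and Tufm was not called (median −0.53); with total-count scaling the median was −0.20 and Gfm1 alone was called. In DTR_PYR 0 of 4 were called, and 2 of 4, both lower, without DTR_PYR 4 to 6.

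Eef2k answers to calmodulin, AMP-activated kinase, mTOR and the S6 kinases, and is removed through the ubiquitin ligase subunit Btrc. Of 18 such regulators tested, 5 rose and 3 fell in DTR_PBS against WT_PBS, with a median of 0.12, beside 42.9% of all genes called. With total-count scaling 9 were called higher and 1 lower, with a median of 0.49, beside 48.3% of all genes called. Prkab1, a subunit of AMP-activated kinase, fell by 0.75 on the log2 scale and Btrc by 0.72. In DTR_PYR against WT_PYR Prkab1 fell by 0.58 and 17 were not called; without DTR_PYR 4 to 6, 4 were called higher and 2 lower. Mapk13 was below the filter on low counts. Of 7 Elongator genes and Dph3 partners, 0 were called in DTR_PBS with TMM scaling and 4, all higher, with total-count scaling. In DTR_PYR Elp5, named after its value was seen, was called lower by 0.40 with TMM scaling and was not called with total-count scaling, where 1 other gene of the list was called higher, or without DTR_PYR 4 to 6, where 2 others were called higher.

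Along the route by which the toxin enters a cell, 4 of 6 genes rose in DTR_PBS, with a median of 1.01. With total-count scaling 5 of 6 rose there. In DTR_PYR 3 of 6 rose, with a median of 0.60. Without DTR_PYR 4 to 6 the count was again 3 of 6, with a median of 0.97, beside 32.5% of all genes called. The test called 21.3% of all genes higher in DTR_PBS and 8.06% in DTR_PYR. Hbegf stood at 118.1 to 171.9 CPM in DTR_PYR 1 to 3 and at 19.3 to 25.8 CPM in DTR_PYR 4 to 6. With all libraries its log2 fold changes were 2.52 (edgeR adjusted p = 4.59e-05) in DTR_PBS minus WT_PBS and 1.90 (adjusted p = 0.00436) in DTR_PYR minus WT_PYR. For Hsp90aa1, a chaperone of the toxin's passage from the endosome, these were 2.06 and 1.82, and for Txnrd1, which reduces thioredoxin, 1.30 and 0.97, all called. Cd9, which associates with the receptor, was called at 0.72 in DTR_PBS and had 0.24 without a call in DTR_PYR. Furin, which cleaves the toxin, had 0.29 and 0.19, and Hsp90ab1 −0.18 and −0.02, with no call. Eef2 belongs to the messages that start with a terminal oligopyrimidine tract. Of 12 other such messages outside the ribosomal proteins, 5 rose in DTR_PBS and 0 fell, beside 42.9% of all genes called. Vim (1.82), Pabpc1 (1.44) and Npm1 (1.19) led, and the median was 0.31. In DTR_PYR those 3 alone were called. With total-count scaling 7 of these 12 were called higher in DTR_PBS, and without DTR_PYR 4 to 6, 5 were called higher in DTR_PYR. In the drug comparisons and the interaction 0 genes of these 6 lists were called.

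The genes most like a member in pattern were found by the root mean square difference of log2 CPM over the 24 libraries, each gene centred on its own mean, among the 9864 genes that averaged 5 CPM or more. For Eef2 they were Atp6v0a1 (0.084), Prcc (0.087), Nucb1, Lrp10 and Sbf1, where Eef2 itself varied by 0.23 about its mean. For Eef2k they were Inppl1 (0.188), Gcat (0.188), Aldh2 (0.190), Rnf10 and Cd300lg, with a variation of Eef2k itself of 0.60. For Dph5 they were Eif4a1 (0.234), Nifk (0.253), Txnrd1 (0.263), Rpl7l1 and Nop56, with 0.67 for Dph5 itself. These distances describe shared libraries and carry no test.

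Promoter windows of 170 bases, 150 before to 20 after an annotated start, were read from RefSeq on GRCm38.p6 for 8 of the 9 members; Dph2 had none. Eef2k and Eef2 are shown because one fell and the other did not pass the test. Capitals mark matches, on either strand, to 5 motifs searched as letters. These were the E-box CACGTG, the cyclic AMP response element TGACGTCA, the CCAAT box, the TATA box as TATAAA, and the ETS core CCGGAAG. The windows are chr7:120842681-120842850 and chr10:81176481-81176650, both on the + strand.
Eef2k: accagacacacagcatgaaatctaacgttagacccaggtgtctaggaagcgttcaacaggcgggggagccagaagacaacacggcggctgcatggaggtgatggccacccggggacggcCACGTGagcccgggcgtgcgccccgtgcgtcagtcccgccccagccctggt
Eef2: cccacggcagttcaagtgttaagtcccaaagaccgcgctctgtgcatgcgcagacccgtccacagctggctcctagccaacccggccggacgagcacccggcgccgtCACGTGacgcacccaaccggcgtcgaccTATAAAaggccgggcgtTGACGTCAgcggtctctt

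RefSeq lists 3 starts for Eef2k; the window shown is of the first, and those of the other 2 hold none of the 5 motifs. Both windows shown hold CACGTG, which starts at position −31 in Eef2k and −43 in Eef2, counted from the start site. Of 32851 RefSeq windows of the same length 4.86% hold it. CACGTG is also in the windows of Dph1 (at 7) and of the second start of Dph3 (at −45), and not in those of Dnajc24, Dph5, Dph6 and Dph7. Eef2 also holds TATAAA at −15 (8.10% of windows) and TGACGTCA at 3 (1.54%), and no matches overlap in these 2 windows. CCAAT (26.3% of windows) and CCGGAAG (6.73%) have no match in either. These are matches of letters, and no binding was measured.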

How the data were processed

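The authors' deposited table of raw, unfiltered counts per gene was used; it covers 46078 genes in 24 libraries, which were polyadenylated, single-end and non-strand-specific. Per the submitters' processing notes, HTSeq, TopHat2 2.1.1, Bowtie2, edgeR and DESeq were used with build GRCm38; no source used here gives the annotation release or each tool's role. Reads from bases that genes share on opposite strands cannot be assigned to either gene by strand.

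The 15456 genes that exceeded 0.5 CPM in 6 or more libraries were fitted with the edgeR 4.0.16 quasi-likelihood model after TMM scaling (R 4.3.3), with 1 coefficient for each of the 4 groups and all 24 libraries. The 5 contrasts were the injury under each treatment, the drug in injured and in uninjured hearts, and their interaction. Tests were two-sided with Benjamini-Hochberg adjustment over all genes and a threshold of 0.05. Log2 CPM used a prior count of 2. Scripts were tested on simulated data. Totals of 1.88 to 37.8 M counts limit the rarer Dph genes.

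Alternatives were DESeq2 1.42.0 size factors, total-count scaling, no filter, limma 3.58.1 voom, the DESeq2 Wald test, the tag letter or tag series as a term, leaving out libraries under 3 M counts, and leaving out each library; leaving out DTR_PYR 4 to 6, and the counts of gene lists under other scalings, were added after seeing the data.

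The members and gene lists were chosen with earlier results of these data known. Named genes were all members, the toxin route in full, up to 3 called genes of each other pathway list by p in DTR_PBS minus WT_PBS, up to 2 markers of a list by mean CPM, and the 5 nearest genes in pattern to Eef2, Eef2k and Dph5; Myl2, Eef1a2, Tufm, Mapk13 and Elp5 were named after their values were seen. Some genes that this rule names are not reported here. Coordinates are those of the deposited table, counted from 1.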

Additional observations from a re-analysis of the deposited data

Results flagged for a closer look

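The 9 members were examined in each of the 4 groups for 1 library far from the other 5, which gave 2 of 36 gene and group pairs; chance gives about 1 in 20 groups. Dph5 in WT_PYR 3 had 5.78 CPM, while the other 5 WT_PYR libraries had 3.37 to 3.96 CPM. Dph7 in WT_PBS 6 had 4.23 CPM, while the other 5 WT_PBS libraries had 5.56 to 5.89 CPM. Neither gene had a call that depended on these libraries being kept.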

How the results depend on the processing

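For DTR_PBS against WT_PBS 3 members were called, beside 42.9% of all genes. The count was 4 with total-count scaling (48.3% of all genes) and with limma voom (47.6%). It was 2 without the filter on low counts (22.2% of 29324 genes). When each library was left out in turn it ranged between 2 and 3, with 2 in 6 of 12 such fits, beside 36.9 to 44.1% of all genes. For DTR_PYR against WT_PYR the count of 2 (12.2% of all genes) became 1 with limma voom (5.09%) and 0 without the libraries under 3 M counts (0.647%). For DTR_PYR against DTR_PBS the count of 0 (0% of all genes) became 2 with limma voom (11.4%) and 1 with DESeq2 (1.57%). It became 1 without the libraries under 3 M counts (13.7%). When each library was left out in turn it ranged between 0 and 2, beside 0 to 15.6% of all genes. Of 1035 recomputed values of single members 1015 kept their side of the threshold, 9 gained a call, 11 lost one, and 0 called values changed sign; 46 uncalled ones did. The tag letter or tag series as a term changed no call among the members. The cause of these changes was not tested. No paired analysis was possible because the titles carry animal tags and no replicate numbers. Dph genes had as few as 5 reads in a library, and changes under about the size of their intervals were not detectable.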
